A study of Mus musculus with 2 samples.

Results

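The Rab and exocytosis genes described here are the small GTPases of the Rab family, the vesicle-associated membrane proteins (VAMP), the syntaxins, the SNAP-25 family and the syntaxin-binding proteins, chosen by their gene symbols on the array. Of 37003 gene names on the array, 90 belong to this set, with 59 Rab genes and 31 genes of SNARE proteins and their binding partners. Within the set, 8 genes that act on secretory granules (Rab3a, Rab3b, Rab3c, Rab3d, Rab26, Rab27a, Rab27b and Vamp8) were compared with the other 82. The cells were EpCAM-positive epithelial cells, taken from submandibular glands by magnetic beads, of female C57BL/6 mice (C57BL/6N in the study's methods), untreated and carrying no engineered allele that the labels name. The young group was 9 weeks old and the aged group 24 months old, with 1 mouse and 1 array in each, so no test between the ages was made and no difference has a replicate check. Both were hybridized on 1 slide. The young and the aged mice of the study came from different suppliers, so age and origin cannot be told apart.

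Rab proteins switch between a membrane-bound state that carries GTP and a soluble state that carries GDP, and each marks a particular class of vesicle and recruits motors and tethers to it. Fusion itself is carried out by SNARE proteins, in which a VAMP on the vesicle pairs with a syntaxin and a member of the SNAP-25 family on the target membrane, under the control of syntaxin-binding proteins of the Sec1/Munc18 type. Salivary acinar and granular duct cells store secretory proteins in granules, which carry Rab3, Rab26 and Rab27 proteins and use VAMP8 for regulated release at the apical membrane.

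Each gene was read by probes of 60 bases, and the brightest probe stood for its gene. The first 30 bases of the probes behind the main values are shown because each value below rests on its own probe. For 5 of the granule genes they are, 5′ to 3′:
Rab3a: cactcctccctagaagttatgaacactaca
Rab3d: ctattcactgaccagactcccctaaacact
Rab26: tccacgctggaggaagcagttctgcctttg
Rab27a: agggactctttgaaacaccaaactcatcat
Vamp8: tgtcatcatctgtgtgattgtccttatcat
For the members lower in aged cells by 2-fold or more they are:
Rab32: gccaagtttctgtagtgtaaaacctggaag
Rab8b: tatggacctgccatgtggctagtctgttga
Rab38: ctctgactcaagctgcaggactcttctgta
Rab7b: tgtcaagaaaatggctgaagcttgtttcca
Stx11: actccgagccattcctttctccattaaagc
The files place these probes on the mouse build NCBI37 (mm9), with Rab3a at chr8:73282447-73282506 on the plus strand, Rab3d at chr9:21713734-21713793 on the minus strand, Vamp8 at chr6:72335520-72335579 on the minus strand and Rab32 at chr10:10265134-10265193 on the minus strand.

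All levels below are the log2 signal relative to the 75th percentile of the array, 256 for young and 198 for aged cells, and all differences are aged minus young. A gene was counted as measured where its probe was marked well above background. Of the 90 members, 74 were measured on both arrays, 4 on the young array only, 1 on the aged array only and 11 on neither. Over the 74 members, the median difference was 0.01 (range -1.67 to 0.85), beside 0.09 over all 18745 genes measured on both arrays. The difference was above 0 for 39 members (52.7%) and below 0 for 35, where 59.9% of all genes were above 0. Within 0.5 of 0 lay 61 members (82.4%), beside 76.7% of all genes. Higher in aged cells by 2-fold or more were 0 of the 74 members, where 1.52% of all genes were. At least 2-fold lower were 5 members, namely Rab32, Rab8b, Rab38, Stx11 and Rab7b, where 3.05% of all genes were. The 47 Rab genes measured on both arrays had a median of 0.07 and the 27 SNARE and syntaxin-binding genes a median of -0.05.

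Of the 8 granule genes, 6 were measured on both arrays. Of these 6, 4 (66.7%) had a difference above 0, where 59.9% of all genes did. The median difference of the 6 was 0.35, beside 0.00381 for the other 68 members. Rab3a was the member with the highest difference, Rab26, Vamp8 and Rab3d lay close to each other, and the Rab27 genes were not higher. A difference of 0.345 separated the medians, and it lay between 0.169 and 0.354 under the other settings tried.

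Rab3a, which guides granules to the plasma membrane and is best known from synaptic vesicles, had a signal of 2027 in young and 2815 in aged cells. Relative to the 75th percentile this was 2.98 and 3.83, a difference of 0.85, or 1.80-fold. The signal of Rab3a was thus higher on the aged array before the arrays were scaled to each other. The probe was printed in 10 spots, of which 9 were used, and their differences ran from 0.79 to 0.91 with a standard deviation of 0.0361. The spots are repeats on the same arrays and do not include the spread between mice. The second Rab3a probe, with signals of 134 and 156, gave 0.59. Of all genes measured on both arrays, 439 (2.34%) had a difference as high as that of Rab3a.

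Rab3d, the Rab3 protein of exocrine granules, had signals of 3541 in young and 3478 in aged cells, levels of 3.79 and 4.14, and a difference of 0.35, and its second probe gave 0.26. Vamp8, the vesicle SNARE of exocrine granules, had signals of 3722 and 3671, levels of 3.86 and 4.21, and a difference of 0.35. Rab26, a Rab of secretory granules in acinar cells, had signals of 944 and 952, levels of 1.88 and 2.27, and a difference of 0.38. In these 3 genes the unscaled signals of the arrays were nearly equal, and the positive difference arises where the signals are set against the lower 75th percentile of the aged array.

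Rab27a, which recruits granules to the cell cortex, had signals of 334 in young and 249 in aged cells and levels of 0.38 and 0.33. Its difference was -0.05, with -0.09 by its second probe, and the sign changed after median centring, to 0.12, but under none of the other scalings tried. Rab27b, its close relative in exocrine glands, had signals of 1202 and 773, levels of 2.23 and 1.97, and a difference of -0.27, with -0.42 by its second probe. Rab27b was therefore the lowest of the measured granule genes, below the median of all genes. Rab3b and Rab3c, the neuronal and endocrine Rab3 forms, were not marked well above background on either array and give no fold. In the software's error model, the difference of each measured granule gene carried an error between 0.204 and 0.206, so that Rab27a lay within its error of 0 and Rab27b just outside it.

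**Figure D1:**
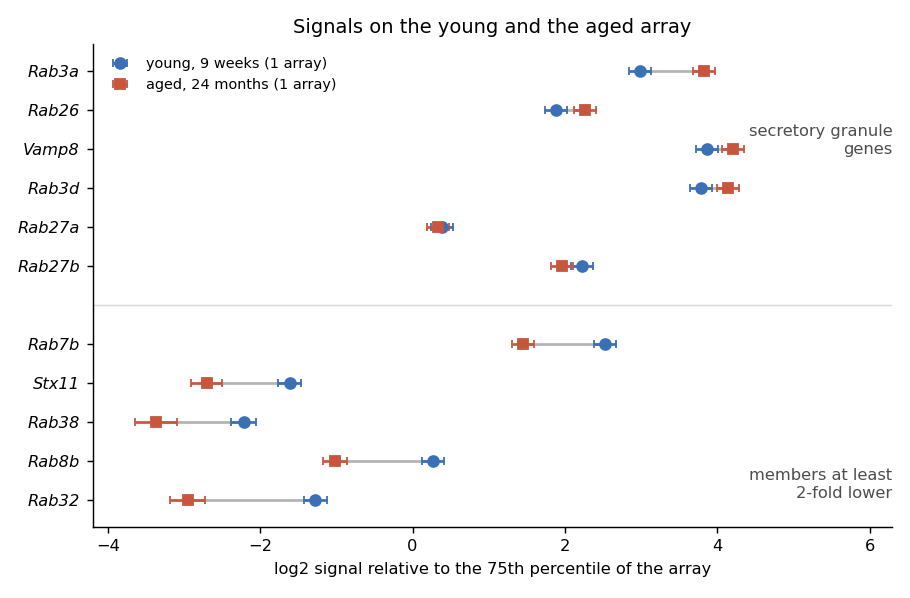
The log2 signal relative to the 75th percentile of the array (horizontal axis) is plotted for the young array (blue circles) and the aged array (red squares), with bars for the error of the signal in the software's error model. Rab3a is farthest to the right of its young value among the granule genes at 0.85, Rab27a overlaps its young value, and the 5 members below the line lie to the left by 1.07 or more on the log2 scale.

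The differences on these arrays moved with signal strength. When all genes measured on both arrays were put in 20 groups by mean signal, the median difference ran from -0.05 in the fifth group from the bottom to 0.46 in the top one. In the group that held Rab3d and Vamp8 the median of all genes was 0.24, so these genes lay 0.11 above genes of like signal. Rab26 lay 0.26 above the median of its group, and Rab27b differed from the same median by -0.39. Rab3a lay 0.66 above the median of its group and above the 95th percentile there, which was 0.61. Over the 6 granule genes the median distance from the group medians was 0.11, and over the other members it was -0.10. After loess, which removes such a trend, the granule median was 0.02, and the difference of Rab3a after the various scalings lay between 0.55 and 1.02.

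**Figure D2:**
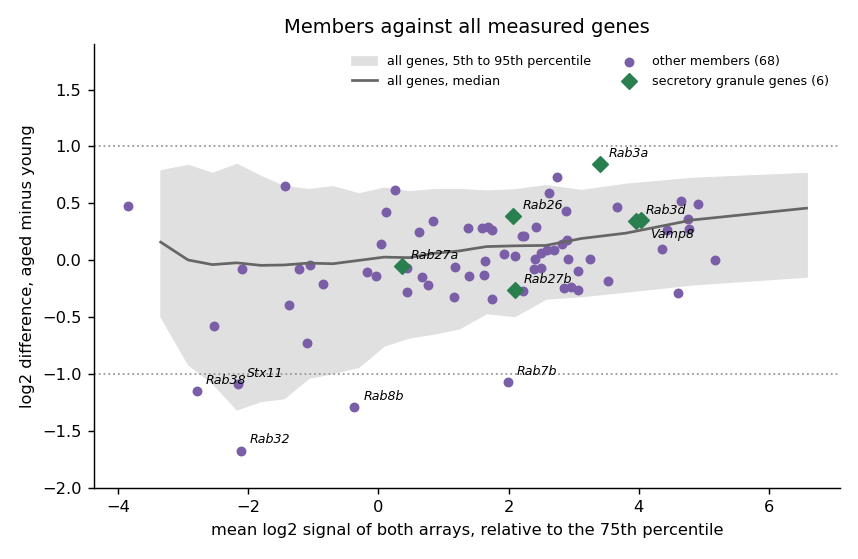
The log2 difference, aged minus young (vertical axis), is plotted against the mean log2 signal of both arrays (horizontal axis) for 6 granule genes (green diamonds) and 68 other members (purple circles), with the 5th to 95th percentile of all genes shaded and their median as a line. Rab3a and Stx18 lie above the shaded band, as does Rab19 by a small margin, and Rab3d and Vamp8 lie near the line. Rab32, Rab38, Rab8b and Rab7b lie below the band, as does Stx12 by a small margin.

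MIST1, the transcription factor encoded by Bhlha15, is known to bind E-boxes and to activate granule Rabs in exocrine cells. Bhlha15 itself had signals of 25918 in young and 19434 in aged cells and a difference of -0.04. RefSeq promoters on GRCm38.p6 were found for 73 of the 90 members, in 90 windows of 250 bases before a start. The E-box CATATG was in 2 of these windows, in Rab27a and Stx19, and in 3.46% of all 32851 windows. The E-box CAGCTG was in 16 of the 90 windows (17.8%), from 15 members, and in 13.0% of all windows. Both E-boxes read the same on either strand, and no overlap between them occurred in the sequences shown. The windows of Rab3a, Rab3d and Rab27a are shown as the granule genes whose differences were highest, intermediate and near 0, with matches in capitals, in the direction of transcription and ending at the base before the start:
Rab3a (chr8:70754852-70755101, plus strand): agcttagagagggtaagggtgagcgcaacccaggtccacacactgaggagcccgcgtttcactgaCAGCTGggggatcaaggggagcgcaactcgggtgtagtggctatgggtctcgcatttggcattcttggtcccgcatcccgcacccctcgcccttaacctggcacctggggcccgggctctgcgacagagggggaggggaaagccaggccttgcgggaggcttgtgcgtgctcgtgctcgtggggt
Rab3d (chr9:21918184-21918433, minus strand): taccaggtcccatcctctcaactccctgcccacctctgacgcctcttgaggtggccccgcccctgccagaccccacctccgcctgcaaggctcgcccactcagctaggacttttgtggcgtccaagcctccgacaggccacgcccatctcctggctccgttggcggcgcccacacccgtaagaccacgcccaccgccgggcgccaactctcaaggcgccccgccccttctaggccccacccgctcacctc
Rab27a (chr9:73063898-73064147, plus strand): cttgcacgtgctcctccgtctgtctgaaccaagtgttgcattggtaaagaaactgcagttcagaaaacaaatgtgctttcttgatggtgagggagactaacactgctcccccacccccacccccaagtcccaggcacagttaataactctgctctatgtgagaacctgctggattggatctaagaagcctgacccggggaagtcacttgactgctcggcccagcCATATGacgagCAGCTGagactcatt
In the Rab27a window, CATATG began 26 and CAGCTG 15 bases before the start, and in the Rab3a window CAGCTG began 185 bases before it. Each of these is a second start of its gene in the table, and the window of the first start held neither E-box in Rab3a and in Rab27a. In Rab3c, CAGCTG began 108 bases before the start, the windows of Rab3b, Rab3d and Vamp8 held neither E-box, and Rab26 and Rab27b were not searched. A match is a string of letters and says nothing about whether a factor was bound in these cells.

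Of the 5 lower members, 3 are Rabs of late endosomes and lysosome-related organelles. Rab32, which directs cargo to lysosome-related organelles and to phagosomes, had signals of 106 in young and 25.6 in aged cells, levels of -1.28 and -2.95, and a difference of -1.67 (3.19-fold lower), where the software put the error at 0.28. Rab38, its close relative in pigment and secretory organelles, had signals of 55.2 and 19.2, levels of -2.21 and -3.37, and a difference of -1.15, for which the error was 0.32. Both are read by 1 probe each, and their aged signals were close to the lowest signal well above background, 14.3. With the normexp background correction the differences were -0.59 for Rab32 and -0.28 for Rab38, under 2-fold. Rab7b, a late endosomal Rab described in myeloid cells, had signals of 1473 and 541, levels of 2.52 and 1.45, and a difference of -1.07. Its second probe was measured on the young array only, at least 1.40-fold lower. Rab7b was thus lower by both probes.

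Over the 7 late endosomal, lysosomal and autophagic Rabs measured on both arrays, the median difference was -0.27, and 3 were at least 2-fold lower, where 3.05% of all genes were. Of these 3, Rab7b alone stayed past 2-fold with normexp, and Rab32 alone after median centring. The stricter filter on dim probes left out Rab32 and Rab38, and Rab7b stayed past 2-fold with it. Rab7, the general late endosomal Rab, stood at the other end of this group with signals of 1237 and 1169 and a difference of 0.29. The group median lay between -0.53 and -0.10 under the other settings tried.

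Rab8b, a Rab of traffic to the plasma membrane, had signals of 309 in young and 97.7 in aged cells, levels of 0.27 and -1.02, and a difference of -1.29. Its second probe, with signals of 26.4 and 18.9, gave -0.11, so the probes of Rab8b did not give the same picture. Rab8b was under 2-fold at -0.70 by the mean of its probes and at -0.96 with normexp. Stx11, a syntaxin of cytotoxic granules in lymphocytes and NK cells, had signals of 83.7 and 30.4, levels of -1.61 and -2.70, and a difference of -1.09, or -0.36 with normexp. Its second probe was measured on the young array only, at least 1.39-fold lower. Of the 5 lower members, Stx11 alone lay inside the 5th to 95th percentile of genes of like signal, whereas the other 4 lay below it.

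Of the members measured on 1 array only, Rab42 was the one whose limit passed 2-fold. It had a signal of 56.1 on the young array and a substitute value of 3.56 on the aged array, and was at least 3.04-fold lower. The second Rab42 probe, with signals of 11.1 and 7.72, was not marked well above background on either array, so the limit rests on 1 probe. Limits of at least 2-fold lower were reached by 1 of the 4 members measured on the young array only, where 24.9% of all such genes reached it. Rab31, Rab13 and Rab37 were at least 1.52-fold, 1.29-fold and 1.08-fold lower. Rab36, the 1 member measured on the aged array only, was at least 1.45-fold higher, and 52.6% of all genes measured on the aged array only passed 2-fold by their limit. Members not marked well above background on either array included Rab30, Rab39, Rab39b, Rab3b, Rab3c, Rab44, Rab9b, Stx19, Stxbp4 and Stx1a, a neuronal syntaxin.

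The promoter window of Rab32, the lowest member among those measured on both arrays, is shown with a match to GAGGAAGT, the core of the motif of the myeloid factor PU.1, in capitals, on GRCm38.p6:
Rab32 (chr10:10558208-10558457, minus strand): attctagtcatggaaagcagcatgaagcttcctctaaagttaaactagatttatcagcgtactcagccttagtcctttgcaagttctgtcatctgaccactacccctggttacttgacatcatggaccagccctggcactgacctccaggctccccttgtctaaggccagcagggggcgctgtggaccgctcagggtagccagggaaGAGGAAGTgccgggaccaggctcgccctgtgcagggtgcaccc
The match began 43 bases before the start. On either strand, GAGGAAGT was in 2 of the 90 member windows, those of Rab32 and Rab2b, and in 2.44% of all windows, so its share among the members was near that of all genes.

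By the study's methods, the bead selection removed most but not all other cells, so markers of other cells were read beside the lower members. Of 13 leukocyte markers on the array, 9 were measured on both arrays with a median difference of -0.62, and 4 were at least 2-fold lower, namely Lyz2 at -1.91, Itgax at -1.64, Laptm5 at -1.40 and Adgre1 at -1.36. The summed level of the measured leukocyte markers, in units of the 75th percentile, was 194 in young and 112 in aged cells, and the highest signal of the list was that of Lyz2 in young and of Itgam in aged cells. Among the other markers of myeloid cells and leukocytes in general, Csf1r stood at -0.62, Ptprc at -0.21 and Itgam at -0.05, and the markers did not differ by like amounts. Lymphocyte markers did not move together, since Cd3e differed by 0.56 and Cd4 by 0.05, whereas Ms4a1, measured on the young array only, was at least 1.94-fold lower, and Cd79a and Cd8a were not measured. Fibroblast markers were lower as well, with 5 of 6 measured on both arrays, a median of -1.44, a summed level of 18.4 in young and 8.63 in aged cells, and Dcn with the highest signal. The 4 endothelial markers measured on both arrays had a median of -0.57, and 1 of them, Pecam1, lay above 0 at 0.10. Their summed level was 3.80 in young and 2.63 in aged cells, with Kdr at the highest signal. The part of these cells in the differences of the lower members was not tested, and in bulk RNA fewer cells of a type and less RNA per cell cannot be told apart.

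Markers of epithelial and acinar cells, read as a check of the labelled tissue and selection, were present on both arrays. Epcam had signals of 1778 and 1573 and a difference of 0.20, and 9 of 10 epithelial markers were measured on both arrays with a median of 0.07. Krt19, measured on the young array only, was at least 1.85-fold lower. All 12 acinar markers were measured on both arrays with a median of 0.37, close to the median of the granule genes. Their summed level was 10766 in young and 14102 in aged cells, with Dcpp2 at the highest signal. The unscaled signals of Car6 (461988 in young and 461163 in aged cells) and Dcpp1 (459091 and 458742) were nearly equal. Their positive differences arise from the lower 75th percentile of the aged array. Before scaling, Dcpp2 was higher on the aged array (505578 and 558086) and Smgc lower (50183 and 11245). In the top group by mean signal, which held Car6 and Dcpp1, the median of all genes was 0.46. Lpo was highest at 0.98, and 4 of the 12 lay below 0, with Smgc at -1.79, Muc19 at -0.89, Slc12a2 at -0.42 and Bhlha15 at -0.04. The 9 granular duct markers had a median of -0.12, and 8 of them lay below 0. Of 8 basal and myoepithelial markers 5 lay above 0 and the median was 0.06, from -2.14 for Cnn1 and -1.83 for Myh11 to 0.81 for Krt17. Of 8 neuronal and glial markers, which were read because Rab3a is neuronal as well, 5 were measured on both arrays with a median of 0.10 and Uchl1 at 1.30. Of 9 mast cell and platelet markers, 3 were measured on both arrays, with Pf4 at -1.85, Tpsb2 at -1.05 and Kit at 0.91, and Gp9, measured on the aged array only, was at least 2.48-fold higher. Whether the acinar and neuronal markers share a source with the granule genes was not tested.

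Among the other Rabs, most differences were small. The 12 ER and Golgi Rabs measured on both arrays had a median of 0.18. Rab19 was highest in this group at 0.65, with signals of 75.6 and 91.7, and Rab2b, a Rab of traffic between the ER and the Golgi, was lowest at -0.28, with signals of 382 and 243, whereas its second measured probe gave 0.35. Rab1a, which controls the step from the ER to the Golgi, had signals of 5354 and 5945 and a difference of 0.52, but its 3 probes ran from -0.01 to 0.52.

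The 13 recycling and plasma membrane Rabs had a median of 0.14. Rab25, the epithelial relative of Rab11, was highest at 0.59, with signals of 1291 in young and 1497 in aged cells, and its second probe gave 0.74. Rab8b, described above, was lowest in this group. The 6 early endosomal Rabs had a median of -0.02. Rab22a was lowest at -0.32, with signals of 643 and 398, whereas its second measured probe gave 0.04. Rab5c was highest at 0.21, with signals of 1122 and 1003, and its sign changed after loess and on the spike-in controls. Of the 4 other Rabs, Rab23 was highest at 0.48 and Rab40b lowest at -0.21. The signals of Rab23, 15.1 and 16.2, were close to the lowest signals marked well above background. No group of Rabs other than that of late endosomes held more than 1 member past 2-fold on both arrays.

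**Figure D3:**
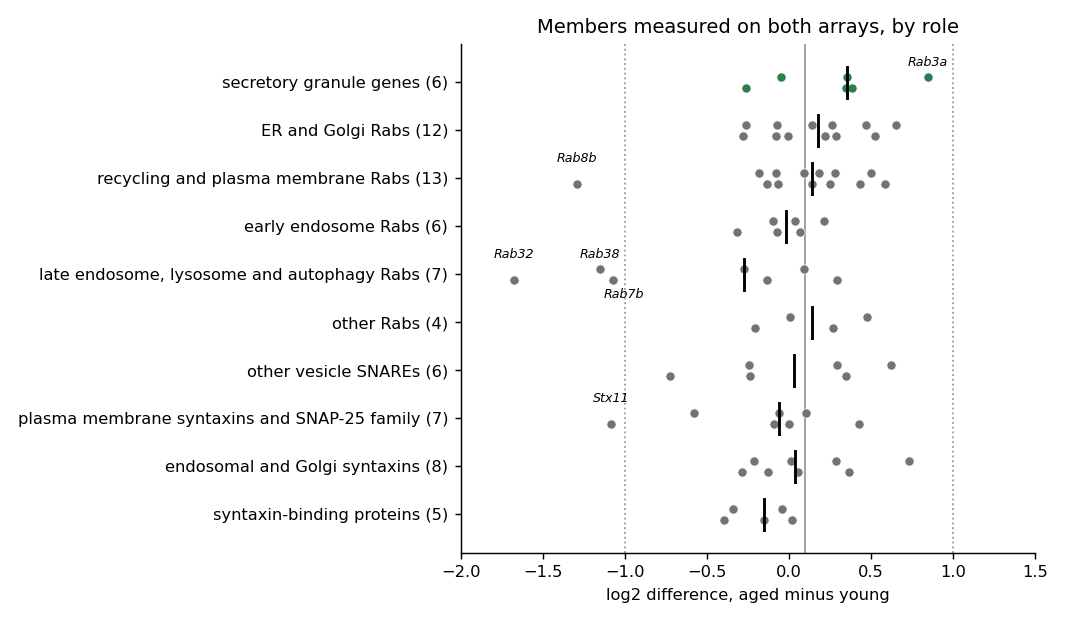
The log2 difference, aged minus young (horizontal axis), is plotted for each of the 74 members measured on both arrays, in 10 groups by role with the number of members in brackets, the group median as a black bar, 2-fold as dotted lines and the median of all genes as a grey line. The granule genes have their median at 0.35, and the late endosomal group, with 3 members past 2-fold, has its median at -0.27.

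Of the proteins that fuse vesicles with the plasma membrane, Stx11 alone passed 2-fold among those measured on both arrays, as described above. Vamp2, a vesicle SNARE of regulated secretion, had signals of 741 in young and 700 in aged cells and a difference of 0.29. Snap23, the SNAP-25 family member of non-neuronal cells, had signals of 5079 and 4205 and a difference of 0.10. Snap29 had signals of 241 and 250 and a difference of 0.43.

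The plasma membrane syntaxins lay at or below 0. Stx2 had signals of 54.4 and 28.2 and a difference of -0.58, for which the error was 0.29. Stx3, the apical syntaxin of epithelia, had signals of 594 and 440 and a difference of -0.06, and Stx4a, the basolateral syntaxin, had signals of 2224 and 1610 and a difference of -0.09. Of the regulators of these syntaxins, Stxbp2, the epithelial Munc18 protein, had signals of 2416 and 1885 and a difference of 0.01. Stxbp3 differed by -0.15, and the sign of Snap23, Stx3, Stx4a, Stxbp2 and Stxbp3 changed under at least 1 other scaling. The lowest of the 5 measured syntaxin-binding genes was Stxbp5, an inhibitor of SNARE assembly, at -0.39, and the median of the group was -0.15.

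Of the 6 other vesicle SNAREs, with a median of 0.03, Vamp7, the SNARE of lysosomal exocytosis, was highest at 0.62, with signals of 246 and 292. Vamp1, the close relative of Vamp2, was lowest at -0.73, with signals of 155 and 72.3, and its second measured probe gave -1.05. The probes of Vamp5 disagreed, at -0.24 and 0.80. Of the 40 members with more than 1 probe measured on both arrays, Vamp5 and Rab8b were the 2 whose probes lay more than 1 apart on the log2 scale. The 8 endosomal and Golgi syntaxins had a median of 0.03. Stx18, the syntaxin of the ER, was highest at 0.73, with signals of 1327 in young and 1699 in aged cells, above the 95th percentile of genes of like signal. Stx12, an endosomal syntaxin, was lowest at -0.29, with signals of 6894 and 4357, below the 5th percentile of genes of like signal, and its 3 probes ran from -0.29 to 0.14.

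The partners of the Rab and SNARE proteins were read from 7 lists with 105 genes on the array, of which 82 were measured on both arrays. Of the 82, 0 were at least 2-fold higher and 3 were at least 2-fold lower, beside 1.52% and 3.05% of all genes. Myo5a, the myosin motor that carries Rab27 and Rab11 vesicles, had signals of 144 in young and 34.2 in aged cells and a difference of -1.70. Syt10, a synaptotagmin, had signals of 393 and 128 and a difference of -1.24, and Chml, an escort protein for the prenylation of Rabs, had signals of 50.4 and 18.8 and a difference of -1.05. With normexp all 3 were under 2-fold, at -0.76 for Myo5a, -0.90 for Syt10 and -0.25 for Chml, and Chml was also under 2-fold after median centring and quantile normalization. The other class V myosins did not pass 2-fold, with Myo5b at 0.20 and Myo5c at -0.23.

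The 18 further SNAREs and Sec1 proteins, most of them of the ER and Golgi but with endosomal and lysosomal ones such as Vps45, Vps33a and Vps33b among them, were the list with the largest share on one side of 0. Their median was 0.35, and 17 of the 18 (94.4%) were above 0, where 59.9% of all genes were. Scfd2 was highest at 0.82, with signals of 653 in young and 891 in aged cells, and Vps33a was lowest at -0.09, with signals of 127 and 92.5. Sec22b, the SNARE of vesicles between the ER and the Golgi, had signals of 2804 and 3200 and a difference of 0.56, and Use1, a SNARE of retrograde traffic to the ER, had signals of 1932 and 2056 and a difference of 0.46. The median of this list was above 0 under every setting tried, with its lowest value of 0.10 when the arrays were set level on the spike-in controls.

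The 9 subunits of the exocyst, which tethers vesicles to the plasma membrane, were all measured on both arrays and all lay within 0.5 of 0, from -0.32 for Exoc6 to 0.10 for Exoc7, with a median of -0.07. Of 20 effectors and priming factors of Rab3 and Rab27, 12 were measured on both arrays with a median of 0.06, from -0.12 for Sytl4, a granuphilin of secretory granules, to 0.73 for Rims1, a Rab3 effector. Rims1 had signals of 50.7 and 64.8. None of the 12 was past 2-fold.

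The 24 regulators of Rabs measured on both arrays had a median of -0.03, with Rabac1, a Rab acceptor of the Golgi, highest at 0.55. The 4 genes of SNARE disassembly had a median of 0.23, from -0.09 for Napg to 0.49 for Napb. Of 21 synaptotagmins and complexins, 8 were measured on both arrays with a median of 0.11, and Cplx2, which clamps and promotes SNARE fusion, was highest at 0.32, with signals of 9659 and 9348. The 7 Rab11 effectors and class V myosins had a median of -0.16, and Rab11fip4 was highest at 0.24. The signs of Exoc7, Sytl4, Rabac1, Napg, Cplx2, Rab11fip4 and Vps33a changed under at least 1 other scaling.

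**Figure D4:**
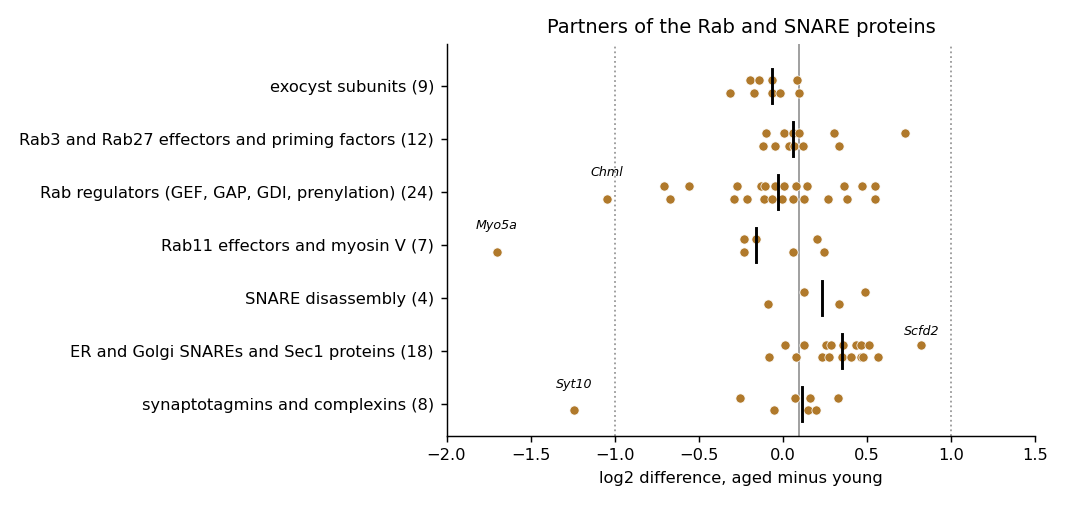
The log2 difference, aged minus young (horizontal axis), is plotted for each of the 82 partner genes measured on both arrays in 7 lists, with the number of genes in brackets, list medians as black bars, 2-fold as dotted lines and the median of all genes as a grey line. Myo5a, Syt10 and Chml lie past 2-fold on the lower side, and the list of ER and Golgi SNAREs and Sec1 proteins lies almost wholly above 0 with its median at 0.35.

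The scaling of the arrays set the position of the granule genes against 0. The granule median lay between 0.02 after loess and 0.52 after median centring, and the median of the other members lay between -0.25 and 0.18. Median centring, the percentile over measured probes and the spike-in controls move all genes alike and cannot change this order. After quantile normalization, loess and normexp, which can, the granule median was still above that of the other members, by 0.169, 0.181 and 0.297, and above that of all genes. Against all genes the distance was 0.25 with the 75th percentile and 0.04 after quantile normalization.

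**Figure D5:**
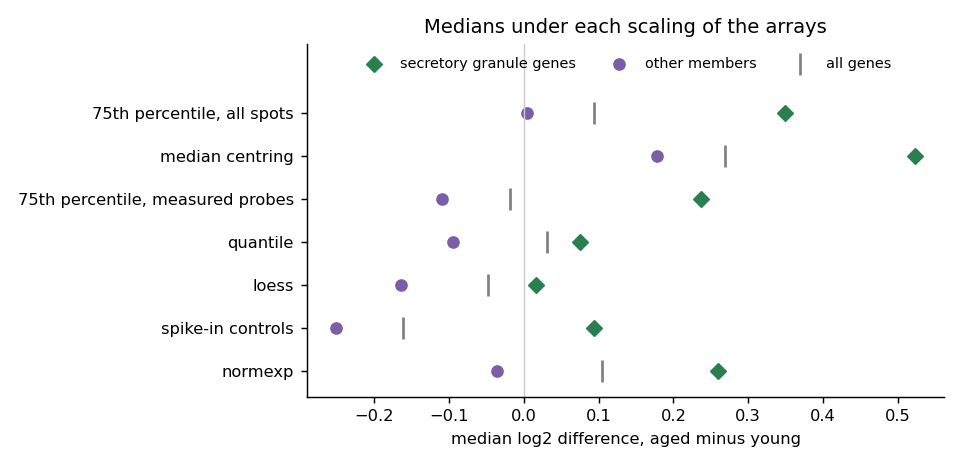
The median log2 difference, aged minus young (horizontal axis), is plotted for the granule genes (green diamonds), the other members (purple circles) and all genes (grey bars) under 7 ways of setting the arrays level (vertical axis). The granule genes are to the right of the other members in each row, by 0.345 with the 75th percentile and by 0.169 after quantile normalization.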

How the data were processed

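The deposited scanner files, made by the authors with Agilent Feature Extraction 12.0.3.1, give the intensity of each spot after background subtraction and detrending, its error, the raw mean and background intensity, and marks for spots well above background. Signals smaller than their error are given there as a substitute value. The deposited value table holds a ratio, each intensity divided by 1 constant per array (229 and 176), and the 59305 non-control spots of each array followed it within 0.1%. The labels describe the RNA as Cy3-labelled cRNA, hybridized to 1 array per age.

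From these, each log2 intensity was set against that of the 75th percentile of non-control spots on its array, outlier spots (90 of the young, 93 of the aged sample) were left out, and spots of a probe were averaged. Signals well above background began at 14.1 (young) and 14.3 (aged) and held 55.4% and 50.8% of spots, and no spot was saturated. The number of arrays limits the precision. The threshold was 2-fold, as in the study's methods. Where only 1 array measured a gene, the dim side was raised to the start of that range where it lay below it, which yields a lower limit. With 1 array per age no test was made. Over 293 probes in 10 spots, the difference had a median standard deviation of 0.0335. Probe positions are on mm9, and promoters and current names are from RefSeq on GRCm38.p6, which 143 of the 186 member probes matched by accession.

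Named were all granule genes, members past 2-fold, the highest and lowest of each role group and partner list, and 9 fusion partners at the plasma membrane. Rab1a, Cd4, Sec22b, Use1, Myo5b, Myo5c and Vamp5 were added after their values were seen. A few named genes are not reported here. The members, lists and settings were chosen with earlier results of these data known, and the motifs after the values had been seen. The steps were tested on simulated data. The 12 alternatives were median centring, the 75th percentile over measured probes, quantile, loess (span 0.7, 3 iterations), spike-in controls (8 probes), normexp (offset 50), other filters on dim probes, outliers kept, the mean of a gene's probes and the value table. Used were R 4.3.3, limma 3.58.1, Python 3.11.15, numpy 2.4.6, pandas 2.3.3 and matplotlib 3.10.9.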

Additional observations from a re-analysis of the deposited data

How the results depend on the processing

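No paired analysis was possible because there was 1 array per age, and for the same reason no array could be left out. The median of the members, 0.01 with the 75th percentile, was 0.18 after median centring, -0.10 with the percentile over measured probes, -0.0823 after quantile normalization, -0.16 after loess, -0.25 on the spike-in controls and -0.0261 with normexp. The granule median, 0.35, was 0.52, 0.24, 0.0747, 0.0166, 0.0938 and 0.26 under the same 6 settings. Its distance from the other members, 0.345, was 0.169 after quantile normalization, 0.181 after loess, 0.297 with normexp and 0.304 with the mean of a gene's probes. The count of members at least 2-fold higher, 0, was 1 after median centring (Rab3a at 1.02), 3 with no filter on dim probes and 1 where 1 measured array was enough. The count at least 2-fold lower, 5, was 2 after median centring (Rab32 and Rab8b), 1 with normexp (Rab7b) and 2 with the stricter filter (Rab7b and Rab8b). The cause of these changes was not tested, except that the filters changed the genes counted. The other 38 values of these results stayed within the spread of repeated spots or, for counts, within 1.5 times. The median of all genes moved by 0.17 with median centring, by -0.11 with the percentile over measured probes, by -0.14 with loess and by -0.26 on the spike-in controls. Of all genes past 2-fold, the share that was higher was 33.2% with the 75th percentile, 52.7% after median centring and 13.9% on the spike-in controls. Of all genes, 4.55% were higher and 6.53% lower with no filter, 7.92% lower where 1 measured array was enough, 1.00% higher and 1.72% lower with the stricter filter, and 0.571% and 1.12% with normexp. For Rab32, Rab38 and Stx11, whose aged signals were dim, normexp gave -0.59, -0.28 and -0.36. Low signal over background limits these genes and the limits of those measured on 1 array.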
